A study of Rattus norvegicus with 10 samples.

Results

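Potassium channel genes outside the Kv1 family were examined in the hippocampus of ibudilast-treated and untreated rats. They were taken as every symbol in the deposited count table that starts with Kcn but not with Kcna and had an expected count of at least 10 in at least 5 of the 10 libraries. Of 80 such symbols in a table of 17168 genes, 64 met that minimum, which was counted over all libraries whatever their group. The family itself was chosen with earlier results of these data known. They comprised 32 genes of the Kcnb to Kcnv subfamilies, 11 inward rectifiers (Kcnj), 11 tandem-pore channels (Kcnk), 6 genes of calcium-activated channels (Kcnm and Kcnn) and 4 channel-interacting proteins (Kcnip). At the edge of the minimum, Kcng3 reached it in 5 libraries, and Kcnh5 and Kcnmb2 in 6. Just outside it, Kcnn4 reached the count in 4 libraries, and Kcnj13 and Kcnrg in 3.

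The ibudilast group was 5 female TgF344-AD rats given chow with ibudilast, which inhibits several cyclic nucleotide phosphodiesterases, and the untreated group was 5 female TgF344-AD rats on rodent chow. All 10 animals carried the human APP gene among the transgenes of this Alzheimer disease model, under the mouse prion promoter, and wild-type rats were not analysed here. Dosing began at 5 months of age and ran for 6 months, and each library came from 1 left hippocampus taken at 11 months. Whether the treated and untreated animals were dissected at matching hours is not given in the labels used here.

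Potassium channels set the resting potential of neurons and glia, end action potentials and limit how often a cell fires. Voltage-gated channels open on depolarization, inward rectifiers and tandem-pore channels carry current near rest, and calcium-activated channels couple calcium entry to repolarization. In the hippocampus many of them are placed in separate parts of the neuron, and several respond to cAMP, G proteins or calcium.

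More of these genes were higher than lower in the ibudilast libraries. Of the 63 genes that could be tested, 35 rose, 3 fell and 25 did not pass (edgeR quasi-likelihood test, adjusted p under 0.05 by Benjamini-Hochberg over 11682 genes). Called genes thus made up 60.3% of the tested channel genes, where 38.5% of all tested genes were called. The higher calls were 55.6% of the channel genes against 20.0% of all genes, and the lower calls 4.76% against 18.5%. The median log2 fold change was 0.78 for the channel genes and 0.01 for all tested genes. The ibudilast and untreated values did not overlap for 22 channel genes, 19 of them higher and 3 lower, which is 34.9% of those tested, where 24.3% of all tested genes did not overlap. These libraries are of tissue, so more or fewer cells of a type and more or less RNA per cell cannot be told apart. No gene lengths were used, so levels are compared between groups within a gene and not between genes.

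The one gene that was not tested was Kcng3, which encodes a modifier subunit of Kv2 channels. It met the minimum through the 5 ibudilast libraries alone, with 2.61, 1.89, 1.13, 1.76 and 2.75 CPM (depth-scaled counts, with library sizes corrected by TMM factors) in ibudilast 1 to 5, against 0.884, 0, 0.137, 0.134 and 0.276 CPM in untreated 1 to 5. Kcnh5 met it with 5 ibudilast libraries and 1 untreated library. For both genes the minimum was reached mainly through the group in which they were higher, so counts over the tested genes are given as a description.

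**Figure D1:**
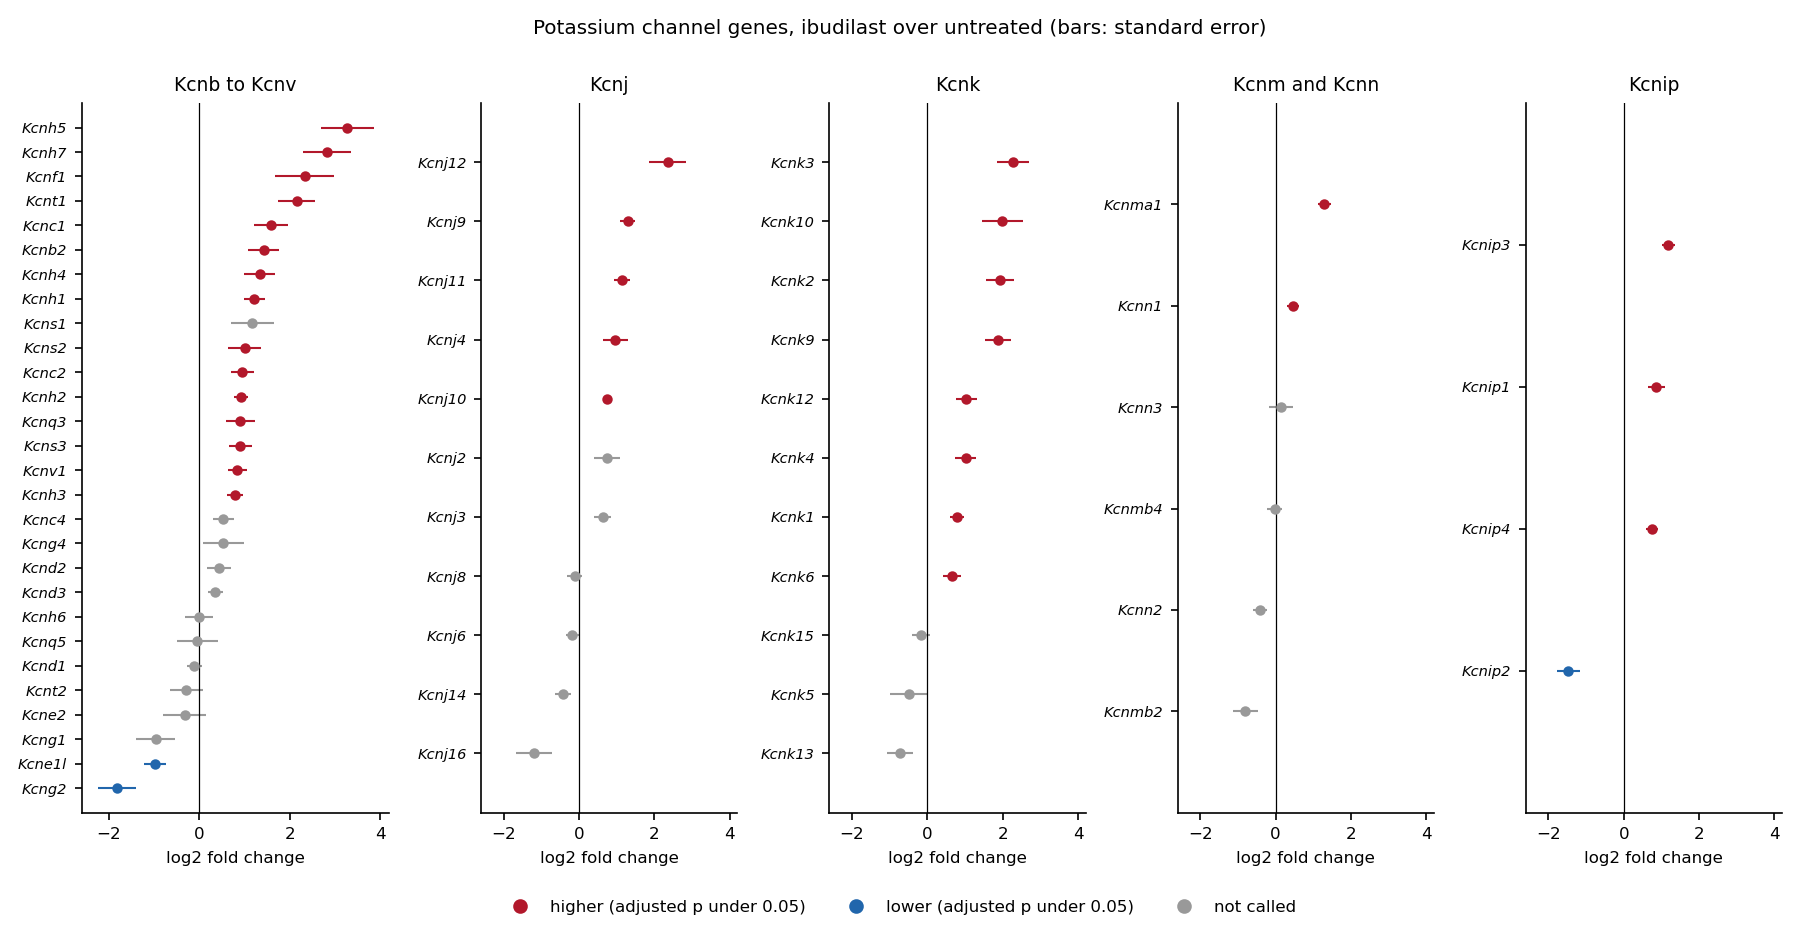
Log2 fold change of ibudilast over untreated for 60 of the tested channel genes (horizontal axis), with standard errors as bars, in 5 panels by subfamily; colour marks genes called higher, called lower or not called by edgeR. Higher genes were 15 of the 28 drawn in the Kcnb to Kcnv panel, 5 of 11 in Kcnj, 8 of 11 in Kcnk, 2 of 6 in Kcnm and Kcnn and 3 of 4 in Kcnip.

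Markers of some brain regions and cell types differed between the groups in the same libraries. Calls made up 70% of the tested hippocampal, 50% of the neocortical, 60% of the astrocyte and 87.5% of the microglial markers. The share over all tested genes was 38.5%. Of 10 tested hippocampal principal cell markers 7 fell and 0 rose, and their summed level ran from 585 to 1415 CPM in the ibudilast libraries and from 996 to 2468 CPM in the untreated libraries. Of 10 neocortical neuron markers 5 rose and 0 fell, with sums from 476 to 1065 CPM in ibudilast and from 577 to 753 CPM in untreated libraries, the highest being ibudilast 2 at 1065 and ibudilast 4 at 1009.6 CPM. Cerebellar markers summed to 3461 CPM in ibudilast 3 and to at most 63.0 CPM in the other 9 libraries. Of the 13 hippocampal markers in the table, none was at 0 in every library, but Tdo2, Lct and Spink8 were too low to test. With a score of the hippocampal markers as a covariate, edgeR called 0 channel genes and 189 of all genes, although 24 channel genes and 3127 of all genes had an unadjusted p under 0.05 and the channel median was 0.61. With the neocortical score 29 channel genes were called, 25 higher and 4 lower, where 34.2% of all genes were, and the channel median was 0.46. Without ibudilast 2 and ibudilast 4 together, a choice made after seeing the data, 25 channel genes were called, where 21.6% of all genes were. The part of tissue composition in the results below was not tested beyond these fits.

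**Figure D2:**
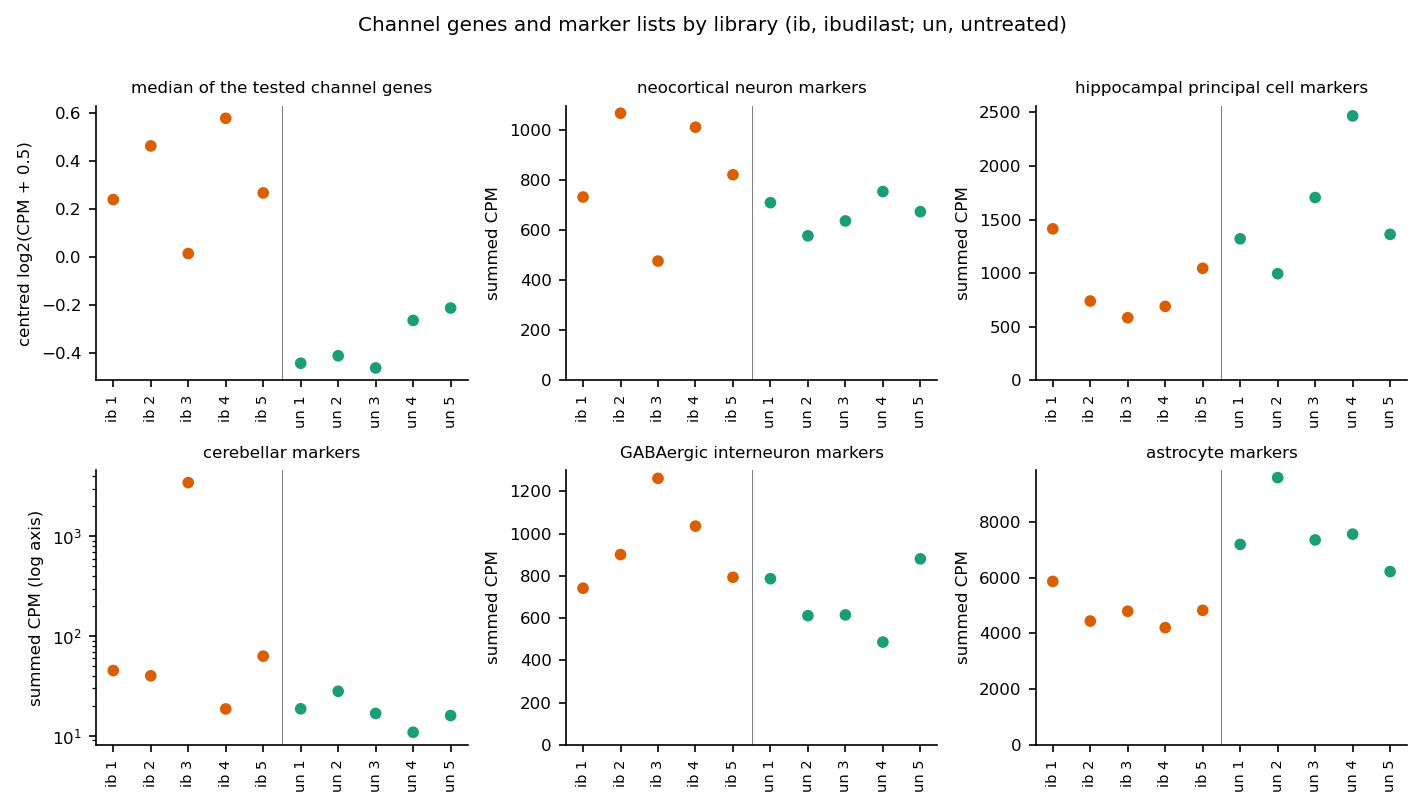
Values by library, ibudilast 1 to 5 on the left and untreated 1 to 5 on the right of each panel. The first panel gives the median over the tested channel genes of log2(CPM + 0.5), centred for each gene, and the others give summed CPM of marker lists, with a log axis for the cerebellum. The channel median ran from 0.01 to 0.58 in ibudilast libraries and from -0.46 to -0.21 in untreated libraries, and it was highest in ibudilast 4 and ibudilast 2, which also had the highest neocortical sums.

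Among voltage-gated channels, Kcnb2 and 6 of the 7 Kcnh genes rose. That is 85.7% of the Kcnh genes, where 20.0% of all tested genes were called higher. Kcnb2, which encodes Kv2.2, averaged 12.6 ± 4.81 CPM in ibudilast and 4.69 ± 1.96 CPM in untreated libraries (SD, n = 5 each), that is 1.42 ± 0.34 on the log2 scale (SE; edgeR adjusted p = 0.00788). It did not pass with the neocortical score as a covariate (log2 fold change 0.76, edgeR adjusted p = 0.0606).

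The Kcnh genes encode the ether-à-go-go channels, which include slow, resurgent and low-threshold currents. Kcnh2, the ERG1 channel gene, had 50.3, 59.2, 80.6, 67.0 and 53.7 CPM in ibudilast 1 to 5, against 29.3, 24.2, 36.5, 36.0 and 38.1 CPM in untreated 1 to 5. The groups were fully separate, and the highest value was that of ibudilast 3. Its log2 fold change was 0.92 ± 0.16 (SE; edgeR adjusted p = 0.00192). With all libraries and no covariate, the steepest rise of all channel genes was in Kcnh5, which encodes EAG2, with a mean of 9.64 ± 7.02 CPM in ibudilast and 0.989 ± 0.454 CPM in untreated libraries (SD, n = 5 each), that is 3.28 ± 0.59 on the log2 scale (SE; edgeR adjusted p = 0.00231). Next came Kcnh7, the ERG3 gene, at 29.8 ± 19.9 CPM in ibudilast and 4.18 ± 1.28 CPM in untreated libraries, or 2.83 ± 0.53 on the log2 scale (SE; edgeR adjusted p = 0.00286). Within the ibudilast group both genes were highest in ibudilast 4 and ibudilast 2, at 18.3 and 15.6 CPM for Kcnh5 and at 52.6 and 45.2 CPM for Kcnh7. They were lowest in ibudilast 3, where Kcnh7 at 5.63 CPM lay below untreated 4 at 5.90 CPM. With the neocortical score Kcnh5 and Kcnh7 were still called, at 1.95 and 1.27 (edgeR adjusted p = 0.00874 and 0.00623). Kcnj12 (2.77), Kcnk3 (2.66), Kcnt1 (2.57) and Kcnk10 (2.52) were highest in that fit. Each of them peaked in ibudilast 3, the library with the lowest neocortical score (-0.65). Without ibudilast 3 and with no covariate they had 1.69, 1.75, 1.64 and 1.18.

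Kcnh1, which encodes EAG1, averaged 78.6 ± 32.7 CPM in ibudilast and 33.7 ± 2.29 CPM in untreated libraries, a log2 fold change of 1.22 (edgeR adjusted p = 0.00325), and was called at 0.73 with the neocortical score and at 0.78 with the trend with gene span removed (a loess trend of fold change on the length of the gene in the genome, over tested genes with a known span). The Kv12 channel genes Kcnh3 and Kcnh4 were higher by 0.79 and 1.33 on the log2 scale (edgeR adjusted p = 0.00562 and 0.012). Kcnh3 was even within the ibudilast group, at 195 to 229.6 CPM, and ran from 70.8 to 161 CPM in untreated libraries. Kcnh6, the ERG2 gene, averaged 4.28 ± 1.29 CPM in ibudilast and 4.32 ± 1.77 CPM in untreated libraries and did not pass (edgeR adjusted p = 0.977). Kcnh4 was not called with the neocortical score as a covariate (0.72, edgeR adjusted p = 0.105).

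In RefSeq's GRCr8 table, the 250 bases before the start were found for 40 of the 64 genes. The E-box CACGTG, the letters that clock and MYC family factors recognise, was in 1 of these 40, Kcnh4, against 7.92% of 9210 promoters of tested genes and 5.59% of 33469 promoters in all. The cAMP response element TGACGTCA was in 0 of the 40, against 3.02% and 1.59%. Each motif reads the same on both strands, and the motifs share the letters ACGT. The median GC content of the 40 was 65.8%, against 60.4% for tested genes. The Kcnh4 promoter is printed since it is the only one of the 40 with a match, and its capitals mark the E-box 116 bases before the start (GRCr8 chr10:86188477-86188726, minus strand).
Kcnh4: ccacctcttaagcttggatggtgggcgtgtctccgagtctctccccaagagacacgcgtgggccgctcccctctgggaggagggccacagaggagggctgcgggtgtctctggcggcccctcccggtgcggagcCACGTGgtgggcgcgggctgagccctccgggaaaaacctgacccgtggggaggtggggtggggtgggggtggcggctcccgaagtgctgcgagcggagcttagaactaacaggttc

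Of the other pore genes of this group, Kcnc1, Kcnc2, Kcnq3 and Kcnt1 were among those that rose. Kcnc1 and Kcnc2 encode the Kv3 channels of fast-spiking neurons, and they rose on the log2 scale by 1.59 ± 0.37 and 0.95 ± 0.25 (SE; edgeR adjusted p = 0.00749 and 0.0122). Kcnc1 reached 627 CPM in ibudilast 3, stood between 132 and 229 CPM in the other ibudilast libraries, and lay between 68.0 and 113 CPM in untreated libraries. Without ibudilast 3 its log2 fold change was 1.05 and it still passed. Kcnc4 averaged 128 ± 5.36 CPM in ibudilast and 88.3 ± 34.4 CPM in untreated libraries and was not called (0.53, edgeR adjusted p = 0.0959). It passed without untreated 2 (0.71, edgeR adjusted p = 0.0414).

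Kcnq3 encodes a subunit of the M-current, which muscarinic receptors close. Kcnq3 averaged 97.6 ± 39.9 CPM in ibudilast and 51.9 ± 16.9 CPM in untreated libraries and passed narrowly (0.91, edgeR adjusted p = 0.0446). It kept its call among the fits without 1 library only where that was ibudilast 3 or untreated 4. Its log2 fold change ran from 0.74 to 1.13 over all fits without 1 library, and was 0.10 with the neocortical score. Kcnq5, a further neuronal member of that family, spread from 26.6 to 155 CPM in ibudilast and from 45.4 to 185 CPM in untreated libraries and did not pass (-0.05, edgeR adjusted p = 0.948). Kcnt1, the sodium-activated Slack channel gene, rose by 2.16 ± 0.41 on the log2 scale (SE; edgeR adjusted p = 0.00288). It stood at 282 CPM in ibudilast 3, at 62.1 to 107 CPM in the other ibudilast libraries and at 14.4 to 40.8 CPM in untreated libraries, and was still called without ibudilast 3 (1.64). Kcnt2, its relative Slick, averaged 19.0 ± 8.74 CPM in ibudilast and 23.2 ± 6.32 CPM in untreated libraries and was not called (-0.28, edgeR adjusted p = 0.556), but was called lower with the neocortical score (-1.26, edgeR adjusted p = 0.012).

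The 3 Kcnd genes, which encode the A-type Kv4 channels of hippocampal dendrites, did not pass. Kcnd2 averaged 153 ± 57.4 CPM in ibudilast and 113 ± 39.7 CPM in untreated libraries (0.43, edgeR adjusted p = 0.211), and Kcnd3 127 ± 4.82 CPM in ibudilast and 99.5 ± 29.0 CPM in untreated libraries (0.36, edgeR adjusted p = 0.123). With 1 library left out, Kcnd2 passed without untreated 4 (0.66) and Kcnd3 without untreated 5 (0.53). Without ibudilast 3, where Kcnd2 stood at 254 CPM, its log2 fold change was 0.18 (edgeR adjusted p = 0.514). Kcnd1 averaged 12.6 ± 3.47 CPM in ibudilast and 13.5 ± 0.755 CPM in untreated libraries (-0.11, edgeR adjusted p = 0.634).

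Genes of subunits that form no channel alone but change Kv2 channels (Kcnf, Kcng, Kcns and Kcnv) went both ways. Of 8 tested, 4 were higher (50%), 1 lower (12.5%) and 3 not called. Over all tested genes, 20.0% were called higher and 18.5% lower. Kcng2 encodes Kv6.2 and was the channel gene with the deepest fall, at 34.5, 13.6, 4.73, 11.7 and 10.8 CPM in ibudilast 1 to 5, against 50.5, 35.7, 71.5, 48.3 and 58.2 CPM in untreated 1 to 5. The groups did not overlap, though ibudilast 1 came close to untreated 2, and ibudilast 3 was lowest. The log2 fold change was -1.82 ± 0.42 (SE; edgeR adjusted p = 0.00654). Kcnf1, which encodes Kv5.1, moved the other way, with a mean of 86.3 ± 41.6 CPM in ibudilast and 17.2 ± 15.2 CPM in untreated libraries, or 2.33 ± 0.65 on the log2 scale (SE; edgeR adjusted p = 0.0164). Untreated libraries of Kcnf1 ran from 1.61 CPM in untreated 4 to 40.0 CPM in untreated 5, and ibudilast 3 at 25.3 CPM fell within that range.

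Kcnv1, Kcns3 and Kcns2, which encode Kv8.1, Kv9.3 and Kv9.2, rose by 0.84, 0.91 and 1.01 on the log2 scale (edgeR adjusted p = 0.0107, 0.019 and 0.0472). Kcnv1 was lowest of the ibudilast group in ibudilast 3, at 26.7 CPM, within the untreated range of 23.2 to 30.2 CPM. Kcns2 ran from 0.85 to 1.35 over all fits without 1 library, and kept its call only where that was ibudilast 3 or untreated 4. Kcnf1, Kcnv1, Kcns2 and Kcns3 were all uncalled with the neocortical score as a covariate, at 1.33, 0.32, 0.36 and 0.46. Kcns1 averaged 17.5 ± 11.9 CPM in ibudilast and 7.72 ± 0.769 CPM in untreated libraries and did not pass (1.17, edgeR adjusted p = 0.0705), but passed without ibudilast 3 (1.45, edgeR adjusted p = 0.00368), without ibudilast 3, ibudilast 5 and untreated 1 together (1.58, edgeR adjusted p = 0.0138) and with DESeq2 (1.18, adjusted p = 0.0326). With the neocortical score its direction turned (-0.43). Kcng1 averaged 37.3 ± 24.3 CPM in ibudilast and 72.8 ± 24.6 CPM in untreated libraries and was uncalled (-0.97, edgeR adjusted p = 0.0930), except without ibudilast 1 (-1.39, edgeR adjusted p = 0.0159). Kcng4 stood at 250.4 CPM in ibudilast 3 and at 44.9 to 75.8 CPM in the other 9 libraries. It was not called (0.53, edgeR adjusted p = 0.376), and without ibudilast 3 its sign turned (-0.29, edgeR adjusted p = 0.123). With the neocortical score Kcng4 was called higher (1.04, edgeR adjusted p = 0.0092).

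The small beta subunit gene Kcne1l, known as KCNE5 in human, had 1.95, 1.13, 1.24, 1.17 and 0.853 CPM in ibudilast 1 to 5, against 2.21, 2.81, 2.46, 2.55 and 2.34 CPM in untreated 1 to 5. The groups were separate at a low level, where a CPM stands for few reads. It fell by 0.97 ± 0.24 on the log2 scale (SE; edgeR adjusted p = 0.00999), and did not pass with the trend with gene span removed (-0.55). Kcne2, a beta subunit gene of choroid plexus epithelium, averaged 3.43 ± 1.14 CPM in ibudilast and 4.32 ± 3.69 CPM in untreated libraries and was highest in untreated 1 at 10.8 CPM, the library in which markers of meninges and choroid plexus summed to 2567 CPM. It was not called (-0.32, edgeR adjusted p = 0.610) and had 0.33 without that library.

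**Figure D3:**
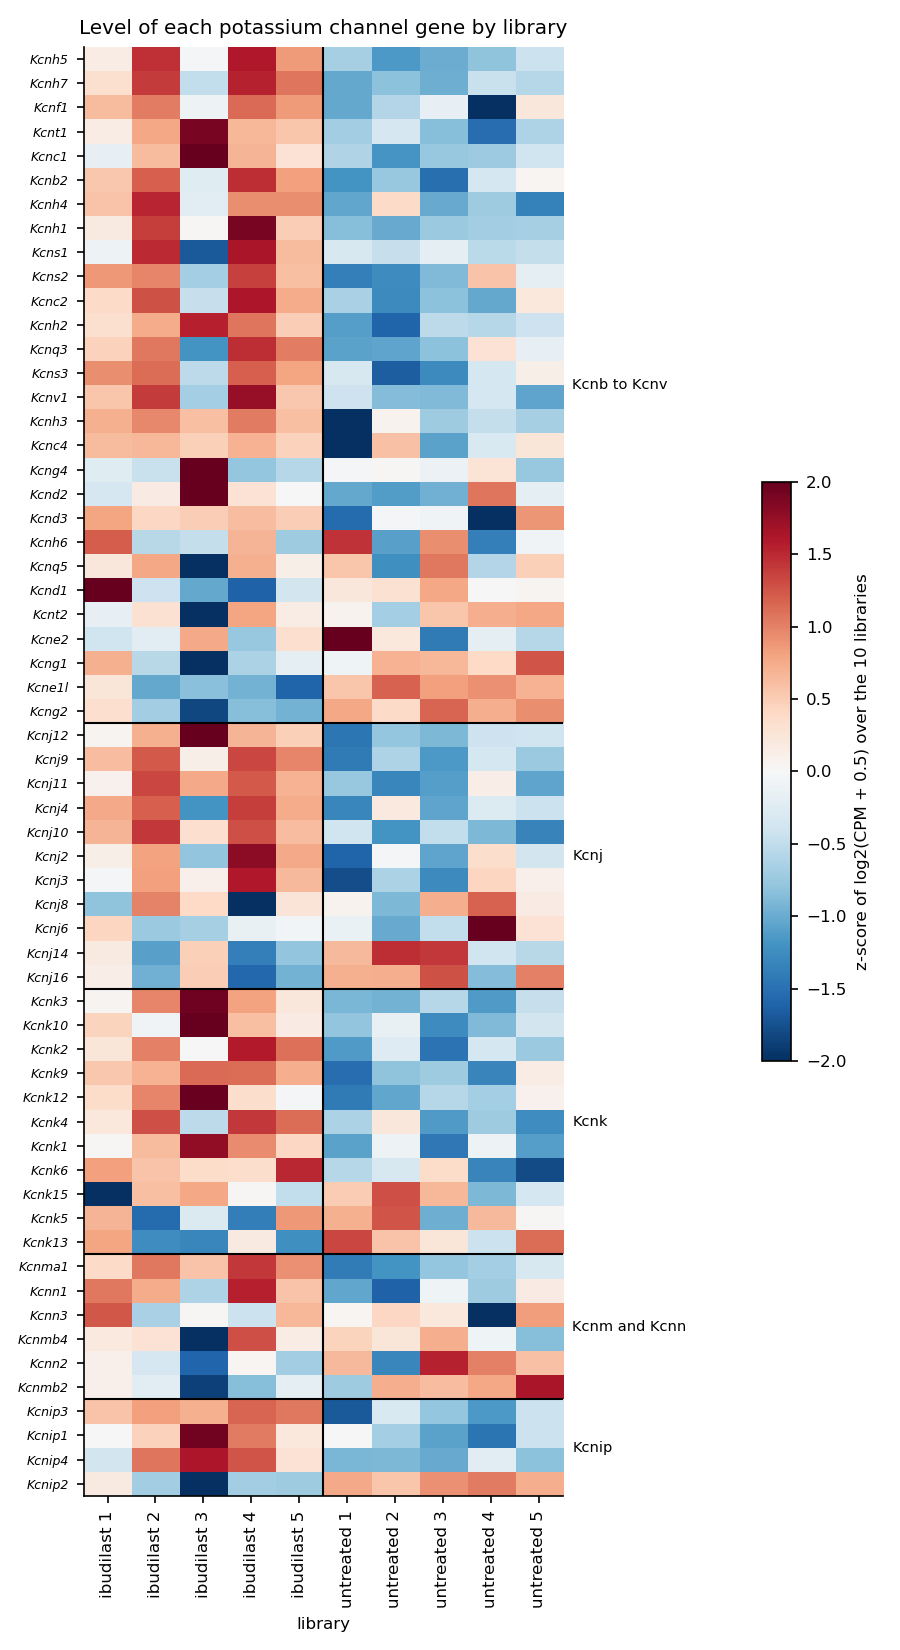
Heat map of 60 of the tested channel genes (rows, by subfamily) in the 10 libraries (columns, ibudilast 1 to 5 and then untreated 1 to 5), as z-scores of log2(CPM + 0.5) per gene with colours limited to 2 SD. Of the 60 rows, 41 have a positive log2 fold change, and ibudilast 3 departs from the other 4 in many of them.

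Of the inward rectifiers 5 were higher and 6 not called, and 0 were lower, around a median log2 fold change of 0.74. Calls thus made up 45.5% of the inward rectifiers, near the 38.5% of all tested genes, of which 20.0% were called higher. Kcnj9 encodes GIRK3, a subunit of the channels that G protein-coupled receptors open, and had 113, 154, 87.1, 164 and 135 CPM in ibudilast 1 to 5, against 39.3, 59.6, 45.1, 68.0 and 55.6 CPM in untreated 1 to 5. Its neighbour Kcnj10 encodes Kir4.1, the channel through which astrocytes take up potassium, and had 29.8, 37.1, 27.0, 35.8 and 29.4 CPM in ibudilast 1 to 5, against 21.7, 17.1, 21.1, 18.7 and 16.4 CPM in untreated 1 to 5. For both genes all ibudilast libraries were above all untreated libraries, and ibudilast 3 was the lowest of the ibudilast group. Kcnj9 rose by 1.29 ± 0.19 and Kcnj10 by 0.75 ± 0.12 on the log2 scale (SE; edgeR adjusted p = 0.00122 and 0.00163).

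The 2 genes lie head to head on chromosome 13 in GRCr8, with their starts 14.2 kb apart, and their promoters are shown because these neighbours rose together. Both sequences are RefSeq's 250 bases before the start, in lower case throughout since neither holds the E-box or the cAMP response element. GC content was 54.8% for Kcnj9 (chr13:87320294-87320543, minus strand) and 72.4% for Kcnj10 (chr13:87334260-87334509, plus strand). Kcnj9 also overlaps the coding gene Igsf8, which fell by 0.26 on the log2 scale (edgeR adjusted p = 0.0396), and whether reads of the 2 genes were separated by strand is not known here.
Kcnj9: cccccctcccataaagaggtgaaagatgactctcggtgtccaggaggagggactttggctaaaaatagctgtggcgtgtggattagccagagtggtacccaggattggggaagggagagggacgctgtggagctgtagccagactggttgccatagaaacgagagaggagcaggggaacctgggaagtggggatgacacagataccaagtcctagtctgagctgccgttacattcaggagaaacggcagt
Kcnj10: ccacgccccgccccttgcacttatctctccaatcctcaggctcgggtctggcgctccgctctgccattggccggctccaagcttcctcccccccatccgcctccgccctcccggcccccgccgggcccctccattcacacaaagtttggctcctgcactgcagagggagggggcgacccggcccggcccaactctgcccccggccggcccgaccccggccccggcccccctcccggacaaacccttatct

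Kcnj10 rose in libraries in which astrocyte markers were lower. Of 10 such markers 6 fell and 0 rose, and their sum ran from 4208 to 5870 CPM in ibudilast and from 6222 to 9596 CPM in untreated libraries. Kcnj16, whose product Kir5.1 pairs with Kir4.1, averaged 11.1 ± 7.22 CPM in ibudilast and 25.5 ± 11.4 CPM in untreated libraries and did not pass (-1.20 ± 0.48, edgeR adjusted p = 0.0654). It did pass without ibudilast 3 (-1.57, edgeR adjusted p = 0.0204) or untreated 4 (-1.44, edgeR adjusted p = 0.0227), and with DESeq2 (-1.20, adjusted p = 0.0281). The point estimates of these partner genes thus had opposite signs, and the difference between them was not tested.

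Kcnj6, which encodes GIRK2, had the highest mean of the inward rectifiers and was not called, at 263, 208, 212, 235 and 239 CPM in ibudilast 1 to 5, against 236, 198, 219, 400.3 and 256 CPM in untreated 1 to 5. Its groups overlapped, and untreated 4 stood far above the rest. The log2 fold change was -0.18 (edgeR adjusted p = 0.443), and with the trend with gene span removed Kcnj6 was called lower (-0.59, edgeR adjusted p = 0.0239). Kcnj3, the GIRK1 gene, averaged 66.9 ± 16.6 CPM in ibudilast and 43.4 ± 14.1 CPM in untreated libraries and narrowly missed (0.63, edgeR adjusted p = 0.0513), and passed without ibudilast 1, ibudilast 3, untreated 4 or untreated 5, at 0.70 to 0.78. With all 10 libraries Kcnj3 also passed with DESeq2 (0.63, adjusted p = 0.0303), with limma-voom (0.65, adjusted p = 0.0429), with limma-trend (0.64 and 0.65, adjusted p = 0.0446 and 0.0449) and in edgeR with library totals alone (0.66, adjusted p = 0.0407).

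Kcnj11 encodes Kir6.2, the pore of the ATP-sensitive channel, and averaged 61.3 ± 14.0 CPM in ibudilast and 28.0 ± 8.77 CPM in untreated libraries (SD, n = 5 each), that is 1.13 ± 0.21 on the log2 scale (SE; edgeR adjusted p = 0.00291). Kcnj8, the other pore gene of that channel type, averaged 3.25 ± 0.703 CPM in ibudilast and 3.53 ± 0.506 CPM in untreated libraries and was not called (-0.12). Among the strong inward rectifiers, Kcnj12 (Kir2.2) rose by 2.35 ± 0.49 on the log2 scale (SE; edgeR adjusted p = 0.0043), with 73.8 CPM in ibudilast 3, 12.2 to 22.6 CPM in the other ibudilast libraries and 2.80 to 8.0 CPM in untreated libraries. Without ibudilast 3 it was called at 1.69. Kcnj4 (Kir2.3) rose by 0.96 (edgeR adjusted p = 0.0388) and had 0.12 with the neocortical score. Over all fits without 1 library Kcnj4 ran from 0.81 to 1.18, and its call held only without ibudilast 3 or untreated 2. Kcnj2 (Kir2.1) averaged 4.03 ± 1.69 CPM in ibudilast and 2.40 ± 0.869 CPM in untreated libraries and was uncalled (0.74, edgeR adjusted p = 0.107), except without ibudilast 3 (0.91, edgeR adjusted p = 0.0355). Kcnj14 (Kir2.4) averaged 13.2 ± 3.03 CPM in ibudilast and 17.8 ± 4.68 CPM in untreated libraries and was uncalled (-0.43).

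**Figure D4:**
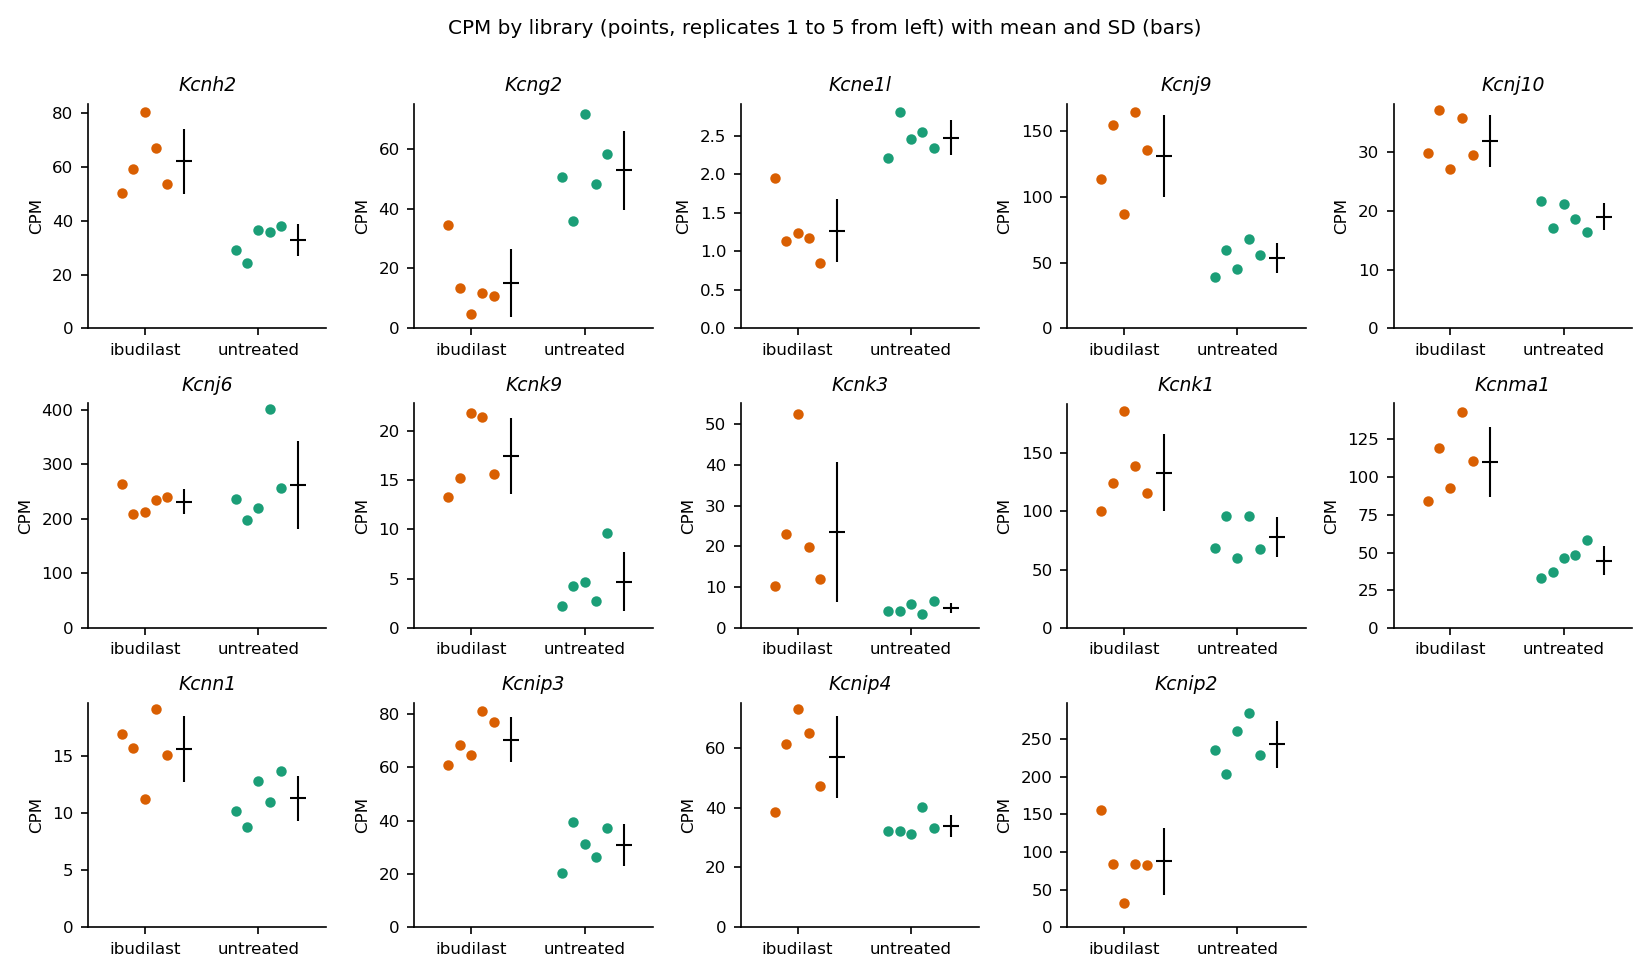
CPM by library for 14 channel genes, ibudilast at left and untreated at right in each panel, with points for the 5 libraries and a bar for the mean ± SD. Most of the called genes drawn show separate groups, but they were mainly picked by small p, which favours separate groups. Groups were separate for 34.9% of the tested channel genes and 24.3% of all tested genes. Kcng2, Kcne1l and Kcnip2 are lower with ibudilast.

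Tandem-pore channels, which carry the background potassium leak, rose in 8 of 11 cases with 0 lower, and their median log2 fold change was 1.02. Calls made up 72.7% of this group, against 38.5% of all tested genes, of which 20.0% were called higher. Kcnk9, the TASK-3 gene, had 13.3, 15.2, 21.7, 21.3 and 15.5 CPM in ibudilast 1 to 5, against 2.21, 4.28, 4.65, 2.68 and 9.66 CPM in untreated 1 to 5. Its closest relative Kcnk3, the TASK-1 gene, had 10.3, 23.0, 52.6, 19.8 and 12.04 CPM in ibudilast 1 to 5, against 4.27, 4.16, 5.88, 3.49 and 6.48 CPM in untreated 1 to 5. The groups were separate for both acid-sensitive channels, and ibudilast 3 was highest for both, above all for Kcnk3. The log2 fold changes were 1.89 ± 0.35 for Kcnk9 and 2.28 ± 0.43 for Kcnk3 (SE; edgeR adjusted p = 0.00253 and 0.0029), and that of Kcnk3 was 1.75 without ibudilast 3. Kcnk1, the TWIK-1 gene, had the highest mean of the group, at 100.2, 124, 186, 139 and 115 CPM in ibudilast 1 to 5, against 68.2, 96.2, 60.2, 96.0 and 67.6 CPM in untreated 1 to 5. Its lowest ibudilast library lay just above its highest untreated one, and the fold change was 0.78 ± 0.19 on the log2 scale (SE; edgeR adjusted p = 0.00828).

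All 3 channels of the mechanosensitive and lipid-sensitive TREK and TRAAK branch rose. Kcnk2 (TREK-1) averaged 49.1 ± 24.6 CPM in ibudilast and 12.8 ± 5.18 CPM in untreated libraries (SD, n = 5 each), that is 1.93 ± 0.38 on the log2 scale (SE; edgeR adjusted p = 0.00352), with its highest value in ibudilast 4, and was called at 1.2 with the neocortical score. Kcnk4 (TRAAK) rose by 1.02 (edgeR adjusted p = 0.0143) and was uncalled with the neocortical score (0.43). Kcnk10 (TREK-2) rose by 1.99 (edgeR adjusted p = 0.0161), with 22.5 CPM in ibudilast 3 and 3.39 to 5.98 CPM in the other ibudilast libraries, against 1.09 to 3.18 CPM in untreated libraries. Without ibudilast 3 its log2 fold change was 1.18 and it passed.

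Kcnk12, which encodes THIK-2, rose by 1.03 (edgeR adjusted p = 0.0143). It stood at 24.2 CPM in ibudilast 3 and at 9.48 to 15.3 CPM in the other ibudilast libraries. Untreated libraries of Kcnk12 ran from 4.86 to 10.1 CPM, so the groups overlapped. Without ibudilast 3 Kcnk12 was called at 0.76. Its relative Kcnk13, THIK-1, is the leak channel of microglia and averaged 2.32 ± 1.17 CPM in ibudilast and 3.79 ± 1.16 CPM in untreated libraries without passing (-0.72, edgeR adjusted p = 0.121), but passed without ibudilast 1 (-1.0, edgeR adjusted p = 0.0333) and with the trend with gene span removed (-1.03, edgeR adjusted p = 0.0419). Of 8 microglial markers 7 fell and 0 rose, with sums of 231 to 426 CPM in ibudilast and 464 to 698 CPM in untreated libraries. Kcnk6 (TWIK-2) averaged 2.93 ± 0.463 CPM in ibudilast and 1.86 ± 0.530 CPM in untreated libraries and passed narrowly (0.65, edgeR adjusted p = 0.0482). It ran from 0.55 to 0.80 over all fits without 1 library, and kept its call only where that was ibudilast 3 or untreated 3. Kcnk5 and Kcnk15, which encode TASK-2 and TASK-5, were not called (-0.48 and -0.17).

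Among the calcium-activated channels 2 of 6 genes rose and 0 fell, and their median log2 fold change was 0.06. Calls made up 33.3% of this group, below the 38.5% of all tested genes, of which 20.0% were called higher. Kcnma1 encodes the BK channel pore, which voltage and calcium open together, and had 84.3, 119, 92.7, 143 and 111 CPM in ibudilast 1 to 5, against 33.4, 37.2, 46.1, 48.3 and 58.5 CPM in untreated 1 to 5. No untreated library reached the lowest ibudilast value. Kcnma1 had the smallest adjusted p of the channel genes, and the fold change was 1.30 ± 0.18 on the log2 scale (SE; edgeR adjusted p = 0.00098), and 0.74 with the trend with gene span removed, where it was still called. Its neuronal beta subunit gene Kcnmb4 averaged 45.4 ± 12.5 CPM in ibudilast and 46.2 ± 6.2 CPM in untreated libraries and was not called (-0.02 ± 0.19, edgeR adjusted p = 0.932). The pore and this beta subunit thus had different calls, and the difference between them was not tested. Kcnmb2, a beta subunit gene that confers inactivation, averaged 0.969 ± 0.338 CPM in ibudilast and 1.69 ± 0.567 CPM in untreated libraries and was uncalled (-0.80, edgeR adjusted p = 0.0793), but passed without untreated 1 (-0.96, edgeR adjusted p = 0.0470) and with the trend with gene span removed (-1.25, edgeR adjusted p = 0.017).

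The SK genes Kcnn1, Kcnn2 and Kcnn3 encode calmodulin-gated channels of the afterhyperpolarization. Kcnn1 had 16.9, 15.7, 11.3, 19.1 and 15.1 CPM in ibudilast 1 to 5, against 10.2, 8.81, 12.9, 11.0 and 13.7 CPM in untreated 1 to 5. Ibudilast 3 fell within the untreated range, and the other 4 ibudilast libraries were above it. The log2 fold change was 0.47 ± 0.17 (SE; edgeR adjusted p = 0.0466). Over all fits without 1 library it ran from 0.38 to 0.57, and the call held only without ibudilast 3 or untreated 5. Kcnn2 averaged 26.8 ± 4.62 CPM in ibudilast and 35.5 ± 8.92 CPM in untreated libraries and was not called (-0.41, edgeR adjusted p = 0.112), but passed without untreated 2 (-0.55, edgeR adjusted p = 0.0188) and with the trend with gene span removed (-0.90, edgeR adjusted p = 0.00602). Kcnn3 averaged 7.40 ± 2.33 CPM in ibudilast and 6.73 ± 2.51 CPM in untreated libraries (0.14, edgeR adjusted p = 0.756).

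All 4 genes of the KChIP family, calcium sensors that bind Kv4 channels, were called, and they split by direction. Of all tested genes 38.5% were called, 20.0% higher and 18.5% lower. Kcnip3, whose product is also known as DREAM or calsenilin, had 60.7, 68.2, 64.6, 80.9 and 76.7 CPM in ibudilast 1 to 5, against 20.2, 39.5, 31.3, 26.2 and 37.2 CPM in untreated 1 to 5. Kcnip4 had 38.4, 61.1, 72.8, 64.7 and 47.3 CPM in ibudilast 1 to 5, against 32.1, 32.3, 31.2, 40.3 and 33.1 CPM in untreated 1 to 5. The groups were separate for Kcnip3, and for Kcnip4 only ibudilast 1 fell below an untreated library. Kcnip3 rose by 1.18 ± 0.17 and Kcnip4 by 0.75 ± 0.16 on the log2 scale (SE; edgeR adjusted p = 0.0011 and 0.00525). Kcnip1, a gene of interneurons among other cells, rose by 0.87 ± 0.23 (SE; edgeR adjusted p = 0.0127), and its lowest ibudilast and highest untreated values met at 18.0 CPM. With the trend with gene span removed Kcnip4 and Kcnip1 did not pass, at 0.12 and 0.40.

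Kcnip2 fell, with 156, 83.9, 32.2, 84.1 and 83.1 CPM in ibudilast 1 to 5, against 236, 204, 261, 285 and 229 CPM in untreated 1 to 5. Every ibudilast library was below every untreated one, and ibudilast 3 was lowest. The log2 fold change was -1.47 ± 0.31 (SE; edgeR adjusted p = 0.00458). Kcnip2 made up 57.2%, 35.8%, 15.5%, 32.8% and 36.7% of the counts of the 4 KChIP genes in ibudilast 1 to 5, against 77.0%, 70.4%, 77.9%, 78.9% and 72.9% in untreated 1 to 5, without correction for length. It was the most counted KChIP gene in all untreated libraries and in all ibudilast libraries except ibudilast 3, where Kcnip4 stood at 72.8 CPM. Its share was smaller in every ibudilast library than in any untreated one. Kcnip2 fell alongside the hippocampal principal cell markers given above.

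Partner genes outside the Kcn symbols were read from lists of known roles. Of all tested genes 38.5% were called, 20.0% higher and 18.5% lower. Both peptidase-like Kv4 partners rose, Dpp10 with 89.4 ± 28.6 CPM in ibudilast and 22.6 ± 12.7 CPM in untreated libraries (1.98, edgeR adjusted p = 0.00282) and Dpp6 with 267 ± 64.9 CPM in ibudilast and 181 ± 44.7 CPM in untreated libraries (0.57, edgeR adjusted p = 0.0368). Dpp6 stood at 383 CPM in ibudilast 3 and at 232 to 252 CPM in the other ibudilast libraries, and reached 234 CPM in untreated 5. Of 3 Kv2 partners, Amigo1, which encodes a membrane protein of Kv2 clusters, averaged 46.7 ± 6.85 CPM in ibudilast and 16.8 ± 5.12 CPM in untreated libraries (1.47, edgeR adjusted p = 0.00098). The tether genes of the endoplasmic reticulum differed, with Vapb higher (0.41) and Vapa lower (-0.31). Abcc8, whose product SUR1 assembles with Kir6.2, rose by 0.84 (edgeR adjusted p = 0.0194), and Abcc9 was not called (-0.28). Abcc8 stood at 102 CPM in ibudilast 3, at 40.0 to 59.7 CPM in the other ibudilast libraries and at 27.2 to 50.1 CPM in untreated libraries. Of 4 BK gamma subunit genes 2 were tested, and Lrrc55 rose (1.35, edgeR adjusted p = 0.0138) while Lrrc38 was not called (1.38, edgeR adjusted p = 0.107). Lrrc38 stood at 16.4 CPM in ibudilast 3 and at 1.56 to 3.22 CPM in the other ibudilast libraries. Fits without ibudilast 3 are not given here for these partner genes.

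Among 9 genes for receptors and regulators of GIRK channels 5 rose (55.6%) and 0 fell. Of all tested genes 38.5% were called in either direction and 20.0% were called higher. These were Rgs7bp (0.95), Gpr158 (0.68), Gnb5 (0.57) and Rgs7 (0.30), which belong to the RGS7 complex that speeds channel closing, and the adenosine receptor gene Adora1 (0.57). The GABA-B receptor genes Gabbr1 and Gabbr2 did not pass (-0.10 and 0.39). Of 7 partners of KCNQ channels 2 rose, the ubiquitin ligase gene Nedd4l (0.57) and the axonal anchor Ank3 (0.36), and 1, the calmodulin gene Calm2, fell (-0.36). Calls made up 42.9% of the KCNQ partners, near the 38.5% of all tested genes.

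**Figure D5:**
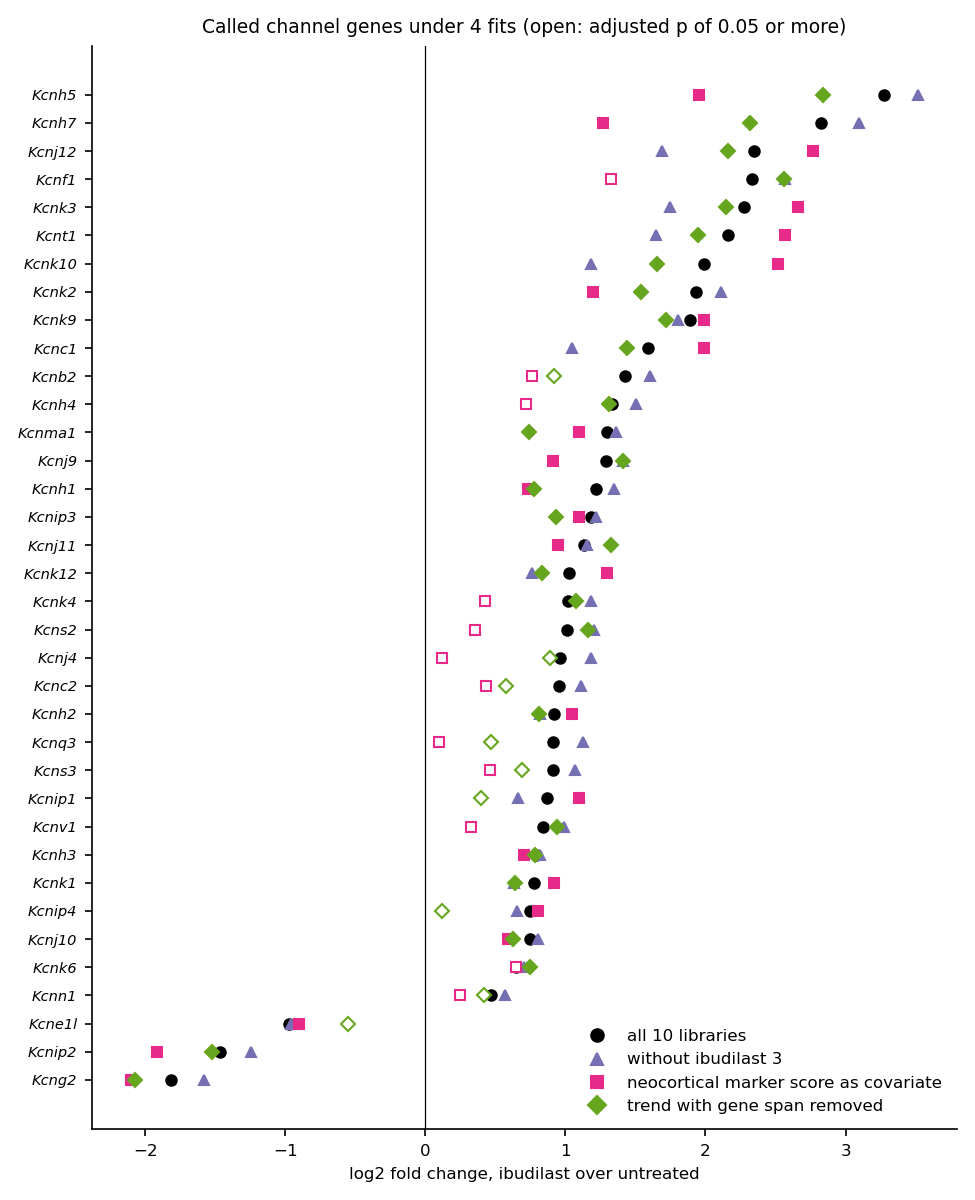
Log2 fold change of 36 called channel genes (rows) under 4 fits: all 10 libraries, without ibudilast 3, with the neocortical marker score as a covariate and with the trend with gene span removed; open symbols did not pass. All 36 passed without ibudilast 3, 24 passed in the same direction with the neocortical score and 27 with the span trend removed. The fit with the hippocampal marker score, in which 0 channel genes were called, is not drawn.

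The channel genes were long, with a median span of 42.3 kb in GRCr8 against 24.4 kb for tested genes, and 41 of the 63 were above that median. With the trend of fold change on span removed, 33 channel genes were called, 27 higher and 6 lower, against 33.4% of all genes. The 9 calls lost there were those of Kcnb2, Kcnc2, Kcnq3, Kcns3, Kcne1l, Kcnj4, Kcnn1, Kcnip1 and Kcnip4. With the neocortical score the calls of Kcnc2 (0.43), Kcnk6 (0.65) and Kcnn1 (0.25) were lost as well as the 9 named above under that score. Without ibudilast 2 and ibudilast 4 the lost calls were those same 12 genes and Kcne1l. With the hippocampal score all 38 calls were lost, in a fit that called 1.62% of all genes. Of the 38 calls, 33 were kept in each of the 10 fits that left out 1 library, and the 5 others are named above with their ranges. Kcnh7, Kcnh3, Kcnk2, Kcnk6 and Kcnip1 also overlap coding genes in GRCr8, of which Gca (Kcnh7) and Mcrs1 (Kcnh3) were not called, at 0.14 and 0.20.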

How the data were processed

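Strand-specific mRNA libraries of 10 left hippocampi, 5 per group, were sequenced, and groups and replicate numbers were read from the labels. Each title holds a separate animal tag, and nothing else in the labels says how samples were collected or handled in batches. The deposited expected counts are the authors' estimated counts per gene. The submitters' processing notes name RSEM 1.2.15, Bowtie2 2.1.0, bcl2fastq 2.17 and, as the build, rn6. Annotation, filters and the use of strand in counting: not given in the sources used here. Of the 64 channel genes, 30 overlap another RefSeq gene and 8 a coding one. The deposited signal table, TMM-scaled CPM made by the authors, matched 99.94% of values recomputed from the counts within 0.1%. Totals per library were 7553804 to 10121571 counts with ibudilast and 6960066 to 8204390 untreated.

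Counts, 10.6% to 11.3% of which were not whole in each library, were rounded and tested with edgeR 4.0.16 in R 4.3.3 (TMM factors, filterByExpr, quasi-likelihood test, Benjamini-Hochberg over all 11682 genes). Standard errors were derived from the quasi-likelihood statistic. Inside each treatment group no pair of libraries matched within sampling noise, and pairs across the groups were not compared. The alternatives were DESeq2 1.42.0, unrounded counts, other filters and scaling factors, limma 3.58.1 (voom, and trend on log2 of the deposited CPM), robust edgeR, a replicate block, libraries left out, marker scores (mean z-score of log2(CPM + 0.5)) as covariates, and a loess offset for gene span. Span came from RefSeq GRCr8 and was found for 98.2% of tested genes, so it is an approximation for rn6. The scripts were tested on simulated data.

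The channel genes, the partner and marker lists and the tests were chosen with earlier results of these data known. Named genes were all called channel genes, with values by library for the 2 of smallest p in each direction and the 1 of highest mean CPM per group, the 2 uncalled genes of highest mean CPM per group, and up to 4 called partners or markers per list. A few of these genes are left unreported in text and figures. Further uncalled genes, and Adora1, Igsf8 and the other partners beyond that rule, were named after their values were seen. No male animals and no protein sequences were used here.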

Additional observations from a re-analysis of the deposited data

Results flagged for a closer look

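In 11 of the 122 groups of 5 libraries examined (each reported channel gene in each treatment group), 1 library stood apart from the other 4 by more than 0.71 of the whole range, a gap that chance gives in about 1 of 20 groups (a share of 0.05). Of the 11 cases, 6 were in ibudilast 3, the library in which cerebellar markers summed to 3461 CPM.

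In ibudilast 3, Kcnc1 reached 627 CPM, with 132 to 229 CPM in the other ibudilast libraries. Kcnd2 stood at 254 CPM there, with 112 to 139 CPM in the others, and Kcng4 at 250.4 CPM, with 44.9 to 58.6 CPM. Kcnj12 stood at 73.8 CPM (others 12.2 to 22.6), Kcnk10 at 22.5 CPM (others 3.39 to 5.98) and Kcnt1 at 282 CPM (others 62.1 to 107). All 6 values were the highest of their group.

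Kcnd1 was highest in ibudilast 1 at 18.5 CPM, with 9.62 to 12.04 CPM in the other ibudilast libraries. In the untreated group, Kcne2 reached 10.8 CPM in untreated 1, with 1.5 to 3.79 CPM in the others, and Kcnh4 reached 11.1 CPM in untreated 2, with 3.59 to 5.50 CPM. Untreated 4 had the highest Kcnj6, at 400.3 CPM with 198 to 256 CPM in the others, and the highest Kcnip4, at 40.3 CPM with 31.2 to 33.1 CPM.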

How the results depend on the processing

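Other scaling factors, filters, rounding, DESeq2, limma and robust edgeR called 35 to 40 channel genes and turned the direction of 0 of the 38 calls. With 1 library left out, the number of lower channel genes was 3 to 5, the Kcnk median log2 fold change 0.76 to 1.10 and the Kcnm and Kcnn median -0.057 to 0.16. In the same fits uncalled genes changed sign within these ranges: Kcnn3 -0.073 to 0.31, Kcnh6 -0.17 to 0.19, Kcnmb4 -0.15 to 0.13, Kcnq5 -0.25 to 0.21, Kcng4 -0.29 to 0.70, Kcne2 -0.54 to 0.33 and Kcnj6 -0.26 to 0.028. Without ibudilast 3, ibudilast 5 and untreated 1 together, 1357 of all genes fell, the Kcnk median was 0.75, and Kcnmb4, Kcnq5, Kcng4 and Kcnh6 turned to 0.19, 0.38, -0.27 and 0.39. Without ibudilast 2 and ibudilast 4, chosen after seeing the data, 25 channel genes were called, 23 of them higher, and 2554 of all genes, 1451 higher and 1103 lower. The Kcnj and Kcnk medians were then 0.40 and 0.78, and Kcnd1 and Kcnk5 had 0.019 and 0.015. With the neocortical score the median was 0.46 for all channel genes, 0.47 for Kcnb to Kcnv, 0.12 for Kcnj and -0.090 for Kcnm and Kcnn, and Kcns1 had -0.43. With the hippocampal score 0 channel genes were called, 0 higher and 0 lower, and 189 of all genes, 137 higher and 52 lower. The Kcnk and Kcnip medians were 0.68 and 0.43, and Kcnj6, Kcnd1, Kcnj8 and Kcnk5 had 0.24, 0.21, 0.042 and 0.26. With the span trend removed 6 channel genes were lower, the Kcnk, Kcnip and Kcnm and Kcnn medians were 0.83, 0.26 and -0.22, and Kcnd2, Kcnd3, Kcnj8 and Kcnn3 had -0.083, -0.044, 0.034 and -0.22. With library totals alone Kcnmb4 and Kcnh6 had 0.015 and 0.039, and Kcnh6 had 0.029 with limma-voom and 0.019 and 0.032 with limma-trend at a pseudocount of 1 and 0.1. With the replicate block Kcnh6 had 0.018, 37 channel genes were called (33 higher, 4 lower), where 30.3% of all genes were, and 35 of the 38 calls were kept. Same-numbered libraries had correlations of -0.133 to 0.0212 and 0 of 5 matched best with their own number. These correlations gave no sign that the numbers pair the libraries, though a weak pairing might not show in them. The causes of these changes were not tested. Genes at a few CPM, such as Kcne1l, Kcnk6 and Kcnmb2, rest on few reads.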

Other observations

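The hyperpolarization-activated HCN channels, which carry a mixed cation current and are gated by cAMP, are relatives of the Kcnh genes. In the list of HCN genes and their partner, 3 genes rose (60%) and 0 fell. Of all tested genes 38.5% were called in either direction and 20.0% were called higher. Hcn2 averaged 177 ± 27.2 CPM in ibudilast and 95.8 ± 21.2 CPM in untreated libraries (SD, n = 5 each), which is 0.89 on the log2 scale (edgeR adjusted p = 0.00243), and the groups did not overlap. Hcn4 averaged 4.53 ± 1.31 CPM in ibudilast and 1.04 ± 0.986 CPM in untreated libraries (2.09, edgeR adjusted p = 0.0102). Pex5l, which encodes the trafficking partner TRIP8b, rose by 1.26 (edgeR adjusted p = 0.00422). Hcn3 did not pass, at 0.70 (edgeR adjusted p = 0.0521).

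Markers of other cells gave the counts below, where 38.5% of all tested genes were called. Near that share were the interneuron list at 33.3%, and thalamus and striatum, and meninges and choroid plexus, each at 40%. Endothelial calls made up 66.7% of their list and mural cell calls 25%. For GABAergic interneurons 3 of 9 rose and 0 fell, with sums of 742 to 1262 CPM in ibudilast and 486 to 881 CPM in untreated libraries, and for thalamus and striatum 4 of 10 rose and 0 fell (273 to 382 CPM in ibudilast and 153 to 225 CPM in untreated libraries). All 3 tested cerebellar markers were called higher, with a sum of 3461 CPM in ibudilast 3. Their sum was 18.7 to 63.0 CPM in the other ibudilast libraries and 10.9 to 28.0 CPM in untreated libraries. Endothelial markers fell in 4 of 6 cases, mural cell markers in 2 of 8, and oligodendrocyte markers in 0 of 8, with 0 higher in each list. For meninges and choroid plexus 2 of 5 rose and 0 fell. These were Col1a1, with 136 CPM in both ibudilast 3 and ibudilast 5, 3.14 to 7.95 CPM in the other ibudilast and 5.90 to 7.95 CPM in untreated libraries, and Col1a2, with 185 CPM in ibudilast 3, 223 CPM in ibudilast 5, 4.52 to 12.2 CPM in the other ibudilast and 5.23 to 7.07 CPM in untreated libraries.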
